A study of Mus musculus with 15 samples.

Results

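The genes described here are 9 markers of the stem and folliculostellate cells of the pituitary: Sox2, Sox9, S100b, Aldh1a1, Aldh1a2, Gfra2, Mia, Notch2 and Hes1. They were taken by symbol from the count table of whole pituitaries, in which each symbol held 1 row, so that 9 of 55523 rows were used. The 15 libraries came from mice of both sexes that lacked the pituitary enhancer (PE) of Nr5a1, a regulatory element in an intron of that gene which was deleted by genome editing. Homozygous deletion (PE-/-) was compared with heterozygous deletion (PE+/-), so that the controls also carried 1 deleted allele in every group. There were 4 libraries of PE+/- females, 3 of PE-/- females, 4 of PE+/- males and 4 of PE-/- males, made from total RNA with a low-input kit. The deletion was present in every cell of the animal and not only in the pituitary, the labels named no age, and they did not say whether each library was a separate animal, so that p-values measure the spread between these libraries, which may in part be technical.

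The anterior pituitary holds a small population of cells that make no hormone. Part of it lines the cleft between the lobes and is marked by the transcription factors SOX2 and SOX9, and it can give rise to hormone cells in culture and after injury. Folliculostellate cells form a network of long processes between the hormone cells, carry the calcium-binding protein S100B, and overlap with the stem cells in the genes they use. Retinoic acid signalling, in which ALDH1A enzymes make the ligand from retinal, and Notch signalling, in which receptors such as NOTCH2 pass a signal through RBPJ to targets such as Hes1, are both known from these cells.

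None of the 9 genes passed an adjusted p of 0.05 by edgeR's quasi-likelihood test in any comparison. Among all genes tested, 0.132% passed between genotypes in males, 1.05% between genotypes in females, 0.670% between sexes in PE+/-, 0.0494% between sexes in PE-/-, and 0.161% for the interaction of genotype and sex. The clearest differences were in females, where Notch2 and Aldh1a2 were higher in every PE-/- library than in any PE+/- library, with adjusted p values of 0.0764 and 0.0634 by edgeR, as were 9.64% of all genes. S100b, the gene that gives folliculostellate cells their usual marker, was hardly detected. In a bulk sample, fewer cells of a type and less RNA per cell cannot be told apart.

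The labels held for the targeted gene, with Nr5a1 between 33.7 and 80.2 CPM (estimated counts scaled to library size with TMM factors) in the PE+/- libraries and between 0 and 0.897 CPM in the PE-/- libraries. Pituitary tissue was evident in every library, since the somatotrope markers summed to between 60121 and 187563 CPM. Library totals ran from 12982794 to 30238443 estimated counts, about 4 of which stood for 1 fragment. Markers of the posterior lobe were uneven among the male libraries, and their values are given where they touch a result. Other marker sums were uneven there too. The melanotrope markers, which include Pomc, summed to 15651 to 58779 CPM in PE+/- males and to 5374 to 116181 CPM in PE-/- males. The lactotrope markers summed to 12912 to 31668 CPM and to 5279 to 41840 CPM, in the same order. The part of these cells in the members' levels was not tested.

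Sums over genes and the values of overlapping genes are given in plain CPM, which is not scaled to gene length. Levels of the members were ranked only per kilobase of annotated exon. On that scale Sox9 stood at 14.8 ± 5.75 CPM per kb (SD over all 15 libraries) and Mia at 14.3 ± 9.35, which did not differ beyond their spread. Aldh1a2 followed at 7.64 ± 1.90 CPM per kb, then Aldh1a1 at 4.67 ± 1.21, Sox2 at 3.87 ± 1.45, Gfra2 at 1.73 ± 0.438 and Notch2 at 1.21 ± 0.437. S100b at 0.591 ± 0.440 and Hes1 at 0.566 ± 0.414 CPM per kb had the lowest means. The ranges of mean ± SD overlapped between all neighbours in this order except Sox2 and Gfra2, so the order is one of means. S100b was at or under 12 counts, the equivalent of 3 fragments, in 6 of the 15 libraries, and Hes1 in 5 of them, while the other members were above that floor in every library. Floors cover counting error only, because reads carried no molecular identifiers.

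**Figure D1:**
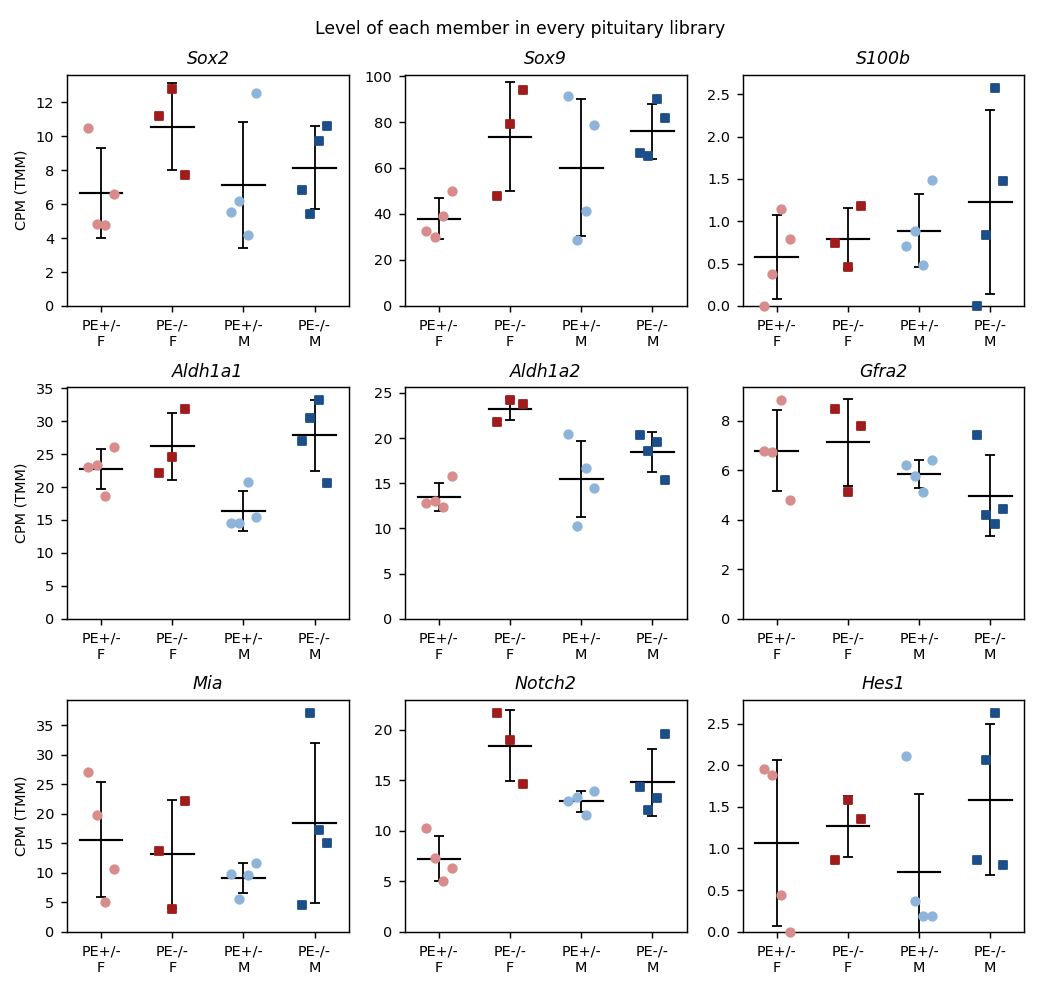
Level of each member in CPM after TMM scaling (vertical axes, linear, from 0) in each of the 15 libraries, with the mean and SD of each group (SD bars end at 0 where they would go below it). Circles are PE+/- and squares PE-/-, F is female and M is male. Notch2 and Aldh1a2 are the panels in which the female groups do not overlap.

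The members lie on several chromosomes of mm10, and the whole annotated gene (GENCODE M21) is given in each case. Sox2 is a gene of 1 exon on the plus strand of chr3:34650405-34652461 and lies inside the long noncoding gene Sox2ot on the same strand. Sox9 is at chr11:112782224-112787760, S100b at chr10:76253853-76261159, Gfra2 at chr14:70890120-70979838 and Hes1 at chr16:30064384-30067796, all on the plus strand. Notch2 is on the plus strand of chr3:98013527-98150361. The enzyme genes Aldh1a1, at chr19:20492715-20643465, and Aldh1a2, at chr9:71215789-71296243, are on the plus strand as well. Mia, at chr7:27179742-27181157, is the one member on the minus strand. It overlaps Gm21983 on that strand, and the deposited table put both in 1 assembled locus, which also held Rab4b. The split of counts between Mia and Gm21983 is therefore uncertain. Gm21983 was at 65.4 to 186 CPM, Mia at 3.81 to 37.0 CPM and Rab4b at 61.6 to 109 CPM. S100b overlaps Dip2a on the opposite strand, which is a limit if the counting ignored strand.

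The 250 bases before the RefSeq start of Notch2 and of Aldh1a2 are shown because these are the members whose female groups did not overlap. The RefSeq start of Notch2 lies inside the GENCODE gene, so that the end of its window overlaps the annotated gene by 11 bases. Both are RefSeq promoter windows on GRCm38.p6, on the plus strand at chr3:98013288-98013537 and chr9:71215539-71215788, written 5′ to 3′, and capitals mark GGGCGG, the GC box bound by SP1 and its relatives, or its reverse complement.
Notch2: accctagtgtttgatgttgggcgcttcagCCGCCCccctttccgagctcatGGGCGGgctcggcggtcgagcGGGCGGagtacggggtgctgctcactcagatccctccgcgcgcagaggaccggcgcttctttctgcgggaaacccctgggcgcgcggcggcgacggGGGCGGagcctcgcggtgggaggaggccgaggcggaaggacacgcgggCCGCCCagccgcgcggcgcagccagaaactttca
Aldh1a2: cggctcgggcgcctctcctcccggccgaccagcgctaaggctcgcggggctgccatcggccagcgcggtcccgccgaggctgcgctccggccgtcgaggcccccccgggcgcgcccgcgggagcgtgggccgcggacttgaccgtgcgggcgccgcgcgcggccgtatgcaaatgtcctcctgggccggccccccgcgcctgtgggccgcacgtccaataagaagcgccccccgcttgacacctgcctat
Both windows were rich in G and C, at 72.0% in Notch2 and 77.6% in Aldh1a2. The Notch2 window held 5 GC boxes, none overlapping another, and the Aldh1a2 window held none. On either strand, neither window held AAGGTCA, the core of the site of NR5A1, which was found in 4.08% of 32851 promoter windows of the same length. Neither held TGGGAA, the core of the site of the Notch effector RBPJ (21.6% of windows), nor ACAAAG or ACAATG, cores of SOX sites (25.2%). GC boxes were found in 32.7% of all windows. Of the 7 windows given for 6 members, 1 held the RBPJ letters (S100b), 2 the SOX letters (Sox2 and 1 of a pair for Aldh1a1) and 0 the NR5A1 letters. These matches describe letters in a window and not occupied sites.

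The first comparison asked how the members differed between PE-/- and PE+/- within each sex. In males, 8 of the 9 members had a positive log2 fold change (median 0.33, against 0.0027 over all genes tested), and 1 of 9 was at an unadjusted p under 0.05, where 6.14% of all genes were. None of the 9 was higher in every PE-/- male library than in any PE+/- male library, against 2.54% of all genes. In females, 8 of 9 also had a positive log2 fold change (median 0.43, against 0.0018 over all genes), and 3 of 9 were at an unadjusted p under 0.05, where 16.1% of all genes were. Of the 9, 2 were higher in PE-/- females without overlap, against 9.64% of all genes. DESeq2, a second test of counts, called 1 of 9 in males and 3 of 9 in females, against 1.19% and 7.96% of all genes. Such counts over 9 genes are a description, and the genes that the tests turn on are given next.

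Sox2 and Sox9 encode the transcription factors that mark the stem cells. Sox2 was at 10.5, 4.86, 4.79 and 6.59 CPM in the PE+/- female libraries and at 11.2, 12.8 and 7.75 CPM in the PE-/- female libraries. The highest control lay among the PE-/- values, so the groups overlapped. The log2 fold change of Sox2 in females was 0.66 ± 0.34 (SE; 95% confidence interval -0.13 to 1.45; edgeR adjusted p = 0.396). In males Sox2 ran from 4.21 to 12.5 CPM in PE+/- and from 5.40 to 10.6 CPM in PE-/-, and its log2 fold change was 0.19 ± 0.37 (-0.66 to 1.04; adjusted p = 0.988). Sox2ot, which surrounds Sox2, had a row of its own at 2.41 to 15.97 CPM.

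Sox9 was at 32.5, 30.2, 39.2 and 50.04 CPM in PE+/- females and at 47.7, 79.0 and 94.1 CPM in PE-/- females. The 2 groups overlapped only between the highest control and the lowest PE-/- library. The means were 37.99 ± 8.90 CPM (SD, n = 4) and 73.6 ± 23.6 CPM (SD, n = 3), a log2 fold change of 0.95 ± 0.27 (0.31 to 1.58) with an adjusted p of 0.148 by edgeR and 0.0351 by DESeq2. In PE+/- males Sox9 split into high and low libraries, at 91.3, 28.9, 41.5 and 78.8 CPM, while the PE-/- males were all high, at 66.7, 65.3, 90.2 and 81.6 CPM. The male log2 fold change was 0.33 ± 0.35 (-0.46 to 1.13; edgeR adjusted p = 0.973). It was -0.015 without the 4 male libraries rich in posterior lobe markers. That fit had 2 libraries per genotype, at 91.3 and 41.5 CPM in PE+/- and 66.7 and 65.3 CPM in PE-/-.

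S100b encodes the calcium-binding protein by which folliculostellate cells are usually stained. It was at 0, 0.377, 1.14 and 0.793 CPM in PE+/- females and at 0.741, 0.464 and 1.18 CPM in PE-/- females. In males it was at 0.705, 0.881, 0.488 and 1.49 CPM in PE+/- and at 0, 0.842, 2.58 and 1.48 CPM in PE-/-. The groups overlapped in both sexes, and the confidence intervals of the log2 fold change were wide, from -1.86 to 2.73 in females and from -1.72 to 2.64 in males, so that a difference was not detectable at this depth. The 4 male libraries with the most S100b were the ones highest in posterior lobe markers: the summed level of 8 posterior lobe markers was 4.09, 84.8, 4.76 and 196 CPM in the PE+/- males and 5.82, 6.24, 148 and 67.0 CPM in the PE-/- males, in the same library order. The lowest of these 4, PE+/- library 2 at 19 counts of S100b, was nearly tied with PE-/- library 2 at 22 counts (0.881 and 0.842 CPM). A link between the 2 was not tested. Without the 4 libraries above 50 CPM, the log2 fold change of S100b in males went from 0.46 to -0.46. That fit had 2 libraries per genotype, at 10 and 8 counts in PE+/- and 0 and 22 counts in PE-/-. Lhx2, Avp and Oxt, which mark pituicytes and the nerve endings of the posterior lobe, were at 0 in 2 of 4 libraries of each male genotype.

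**Figure D2:**
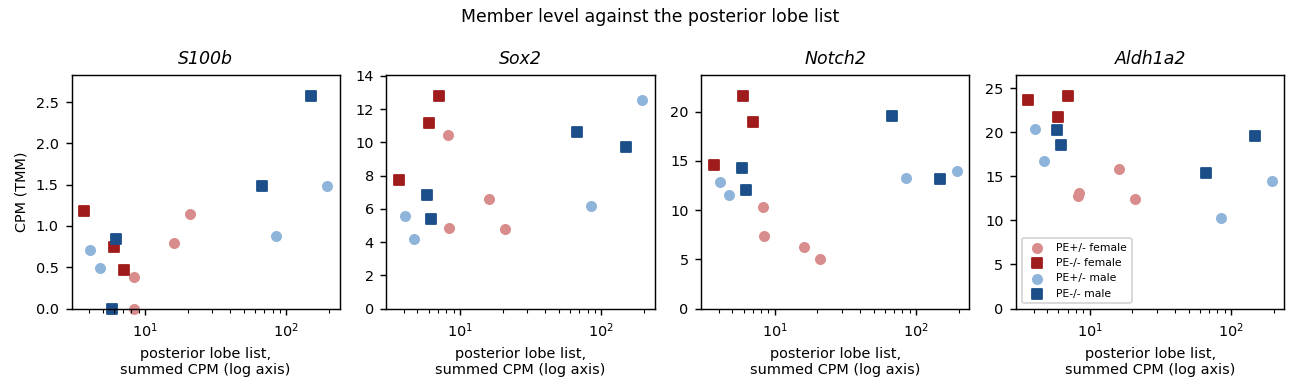
Level of 4 members in CPM after TMM scaling (vertical axes, linear, from 0) against the summed CPM of the posterior lobe list (horizontal axes, log scale), 1 point per library. The 4 male libraries rich in these markers stand above 50 CPM of the list, and the male library with the highest S100b, 2.58 CPM, is among them. The PE-/- females lie at 3.68 to 7.05 CPM of the list. The part of the posterior lobe in any member's level was not tested.

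Aldh1a1 and Aldh1a2 encode enzymes that turn retinal into retinoic acid. Aldh1a2 was at 12.8, 13.1, 12.4 and 15.8 CPM in PE+/- females and at 21.8, 24.2 and 23.7 CPM in PE-/- females. The groups were far apart relative to the spread within each, at 13.5 ± 1.54 CPM (SD, n = 4) and 23.2 ± 1.26 CPM (SD, n = 3). The log2 fold change was 0.77 ± 0.14 (0.44 to 1.11) with an adjusted p of 0.0634 by edgeR and 0.00015 by DESeq2. In males Aldh1a2 was at 20.4, 10.3, 16.7 and 14.5 CPM in PE+/- and at 20.3, 18.6, 19.6 and 15.4 CPM in PE-/-. Those groups overlapped, with a log2 fold change of 0.25 ± 0.22 (-0.24 to 0.75; edgeR adjusted p = 0.972).

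Aldh1a1 showed the reverse division between the sexes in its estimates. It was at 14.5, 14.6, 20.8 and 15.4 CPM in PE+/- males and at 27.1, 30.5, 33.1 and 20.7 CPM in PE-/- males. The lowest PE-/- library was just under the highest control, and otherwise the groups were separate. The means were 16.3 ± 3.01 and 27.8 ± 5.39 CPM (SD, n = 4 each), and the log2 fold change was 0.77 ± 0.19 (0.33 to 1.21) with an adjusted p of 0.358 by edgeR and 0.0486 by DESeq2. In females the values were 23.0, 23.4, 18.6 and 26 CPM in PE+/- against 22.2, 24.5 and 31.9 CPM in PE-/-, which overlapped, and the log2 fold change was 0.20 ± 0.19 (-0.24 to 0.63; edgeR adjusted p = 0.692).

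Gfra2 encodes the receptor to which the ligand neurturin binds, and Mia a small secreted protein first known from melanoma and cartilage. Gfra2 ran from 4.82 to 8.82 CPM in PE+/- females and from 5.14 to 8.46 CPM in PE-/- females, and its log2 fold change was 0.058 ± 0.27 (-0.58 to 0.70; edgeR adjusted p = 0.954). In males it was at 5.12 to 6.40 CPM in PE+/- and at 3.84 to 7.43 CPM in PE-/-, with a log2 fold change of -0.24 ± 0.24 (-0.79 to 0.31; adjusted p = 0.973). It was the only member with a negative estimate in males.

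Of the members above the floor in every library, Mia had the widest spread within a group, with a coefficient of variation of 73.3% in PE-/- males. It was at 27.0, 19.8, 5.01 and 10.6 CPM in PE+/- females and at 13.6, 3.81 and 22.2 CPM in PE-/- females, a log2 fold change of -0.26 ± 0.70 (-1.90 to 1.38; edgeR adjusted p = 0.917). In males it was at 9.80, 5.57, 9.64 and 11.6 CPM in PE+/- and at 4.55, 37.0, 17.3 and 15 CPM in PE-/-, a log2 fold change of 1.01 ± 0.54 (-0.23 to 2.25; adjusted p = 0.903). The PE-/- males held both the lowest and the highest of the male values. With Gm21983 added to Mia, the female estimate of the sum was 0.26. Gm21983 was at 65.4 to 186 CPM, so the sum mostly follows Gm21983 and cannot tell the direction of Mia.

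Notch2 encodes a Notch receptor, and it had the largest log2 fold change of the 9 members in females. It was at 10.3, 7.33, 5.01 and 6.29 CPM in PE+/- females and at 21.6, 19.0 and 14.6 CPM in PE-/- females. Every PE-/- library was above every control, with means of 7.24 ± 2.26 CPM (SD, n = 4) and 18.4 ± 3.53 CPM (SD, n = 3). The log2 fold change was 1.34 ± 0.28 (0.69 to 1.99) with an adjusted p of 0.0764 by edgeR and 0.000995 by DESeq2. When 1 library was left out at a time, the log2 fold change ran from 1.19 to 1.56, and only 1 of these fits passed. That fit left out PE+/- female library 1 (1.56; edgeR adjusted p = 0.0428). This library was the highest control, so leaving it out was bound to widen the difference. In males Notch2 was at 12.9, 13.3, 11.5 and 14 CPM in PE+/- and at 14.3, 12, 13.2 and 19.6 CPM in PE-/-. The PE-/- male libraries other than library 4 lay within or next to the range of the controls, and the log2 fold change was 0.19 ± 0.18 (-0.21 to 0.60; edgeR adjusted p = 0.972).

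Hes1 encodes a repressor that Notch signalling turns on, and it was near the floor. It was at 1.95, 1.88, 0.436 and 0 CPM in PE+/- females and at 0.865, 1.58 and 1.36 CPM in PE-/- females. In males it was at 2.11, 0.371, 0.183 and 0.194 CPM in PE+/- and at 0.860, 2.07, 2.62 and 0.797 CPM in PE-/-. The groups overlapped in both sexes, and the 95% intervals of the log2 fold change, from -2.23 to 2.72 in females and from -0.76 to 3.10 in males, allowed large differences either way.

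**Figure D3:**
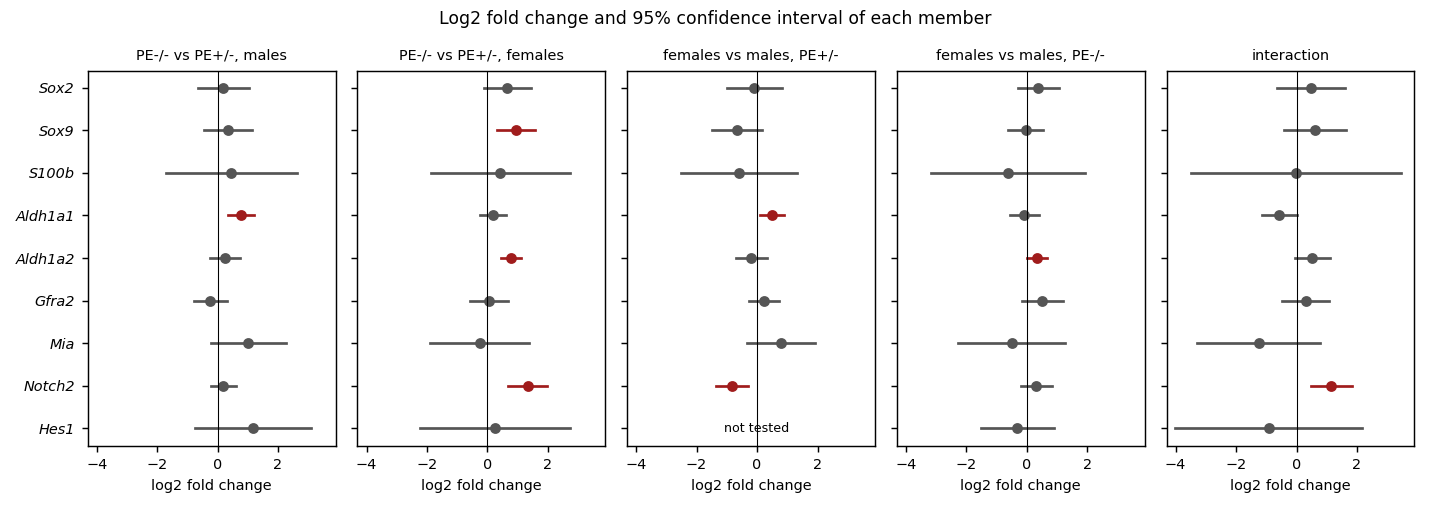
Log2 fold change (horizontal axes) of each member by edgeR with its 95% confidence interval, in the genotype comparisons, the sex comparisons and the interaction of genotype and sex. Red marks an unadjusted p under 0.05. No member passed the adjusted threshold, and Hes1 was too low to be tested between sexes in PE+/-. The female intervals of Notch2 (0.69 to 1.99), Sox9 (0.31 to 1.58) and Aldh1a2 (0.44 to 1.11) lie above 0.

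The second comparison set females against males within each genotype. In PE+/-, where 8 of the 9 members could be tested, 2 of them were at an unadjusted p under 0.05, against 13.5% of all genes, and DESeq2 called 1 against 5.38%. Notch2 was lower in every PE+/- female library than in any PE+/- male library, as were 4.43% of all genes, and its log2 fold change was -0.83 ± 0.24 (-1.37 to -0.29) with an adjusted p of 0.180 by edgeR and 0.0265 by DESeq2. Aldh1a1 was on average higher in PE+/- females, at 22.7 against 16.3 CPM, with overlapping libraries and a log2 fold change of 0.48 ± 0.17 (0.085 to 0.88; edgeR adjusted p = 0.273). The other 6 members tested had intervals that included 0.

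In PE-/-, 1 of 9 members was at an unadjusted p under 0.05, against 3.37% of all genes, and DESeq2 called 0 of 9, against 0.227%. Aldh1a2 was higher in every PE-/- female library (21.8 to 24.2 CPM) than in any PE-/- male library (15.4 to 20.3 CPM), as were 2.53% of all genes, with a log2 fold change of 0.33 ± 0.14 (0.0098 to 0.66; edgeR adjusted p = 0.997). Notch2 overlapped between PE-/- females and males, with a log2 fold change of 0.32 ± 0.22 (-0.19 to 0.83; adjusted p = 0.997). The order of the group means of Notch2 was therefore PE+/- females at 7.24 CPM, PE+/- males at 12.9, PE-/- males at 14.8 and PE-/- females at 18.4. Of the neighbours in that order, only the lowest pair had separate libraries. For Aldh1a2 the order was PE+/- females at 13.5 CPM, PE+/- males at 15.5, PE-/- males at 18.5 and PE-/- females at 23.2, and only the highest pair had separate libraries. These comparisons share libraries with the genotype comparisons, so they are not further evidence for them.

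The interaction asked whether the genotype difference was itself different between the sexes. For Notch2 it was 1.16 ± 0.32 (0.47 to 1.85) on the log2 scale, larger in females, with an adjusted p of 0.197 by edgeR and 0.0412 by DESeq2. It was the only member of the 9 at an unadjusted p under 0.05, against 10.1% of all genes, and the only one that DESeq2 called, against 2.08%. For Aldh1a1 the interaction was -0.57 ± 0.27 (-1.15 to 0.015; edgeR adjusted p = 0.509), and for Aldh1a2 it was 0.53 ± 0.27 (-0.047 to 1.1; adjusted p = 0.541). The opposite division of the enzyme genes between the sexes was thus not past the threshold for either gene.

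The genes around the members were taken from lists of each pathway. Of 24 other stem and folliculostellate genes, 22 could be tested in each sex, and none passed the edgeR threshold. At an unadjusted p under 0.05 there were 3 higher and 1 lower in females, where 16.1% of all genes were under it, and 5 higher and 1 lower in males, where 6.14% were. DESeq2 called 3 in females and 2 in males, against 7.96% and 1.19% of all genes. In females, 17 of the 22 had a positive log2 fold change (median 0.21), and in males 13 of 22 (median 0.057). Cxadr, an adhesion protein of epithelial junctions, came nearest, at 29.5, 21.8, 23.0 and 27.8 CPM in PE+/- females and at 46.1, 45.6 and 44.7 CPM in PE-/- females. The groups were well separate, with a log2 fold change of 0.82 ± 0.15 (edgeR adjusted p = 0.0634). It was also higher without overlap in PE-/- males, at 35.3 to 40.5 CPM against 26.5 to 30.2 CPM, with a log2 fold change of 0.45 ± 0.11 (adjusted p = 0.358). Cdh26, a cadherin, was separate in both sexes too, with log2 fold changes of 0.75 in females (adjusted p = 0.132) and 0.76 in males (adjusted p = 0.469). Lcn2, which encodes the secreted lipocalin 2, went the other way, lower in both sexes, with log2 fold changes of -1.66 ± 0.43 in males (adjusted p of 0.391 by edgeR and 0.0382 by DESeq2) and -2.38 ± 0.74 in females (0.174 by edgeR and 0.0250 by DESeq2). Lcn2 was named after its values were seen.

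Of the Notch pathway, 30 of 32 further genes could be tested in females, and 1 rose and 0 fell by edgeR, which called 1.05% of all genes. At an unadjusted p under 0.05 there were 6 higher and 0 lower, where 16.1% of all genes were. DESeq2 called 1 of the 30, against 7.96% of all genes. Maml2, a coactivator that joins the complex of RBPJ and the cleaved receptor, was at 22.9, 19.4, 18.4 and 21.4 CPM in PE+/- females and at 39.5, 36.75 and 35.65 CPM in PE-/- females. Its log2 fold change was 0.86 ± 0.14 (0.53 to 1.18; edgeR adjusted p = 0.0435). In males, 31 genes of the list were tested and none passed, and Maml2 was at 29.6 ± 6.40 against 38.1 ± 3.57 CPM (SD, n = 4 each; adjusted p = 0.845). The interaction of Maml2 was 0.50 ± 0.22 (adjusted p = 0.453). The median log2 fold change of the list was 0.19 in females and -0.00031 in males.

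Of 15 other SOX factors, 8 could be tested between genotypes in each sex. Sox11, a factor of neural and other immature cells, rose in females, from 79.4, 58.8, 53.3 and 51.4 CPM in PE+/- to 147, 134 and 125 CPM in PE-/-. Its log2 fold change was 1.15 ± 0.19 (0.71 to 1.58; edgeR adjusted p = 0.0435), and the other 7 did not pass by edgeR, nor did any of the 8 in males. DESeq2 called 1 of the 8 in each sex, against 7.96% of all genes in females and 1.19% in males. The 1 gene of the list at an unadjusted edgeR p under 0.05 in males was higher in PE-/-. In males Sox11 was at 112 ± 22 CPM in PE+/- and 92.6 ± 15.7 CPM in PE-/- (adjusted p = 0.954), and its interaction was 1.43 ± 0.26 (adjusted p = 0.0550 by edgeR and 0.0001 by DESeq2). The calls of Maml2 and Sox11 in females were both lost when any 1 of the female libraries other than PE+/- library 1 was left out, with edgeR adjusted p values of 0.0868 to 0.165 for Maml2 and 0.0932 to 0.165 for Sox11. They were also lost without a low-count filter (0.0657 and 0.0503) and with a replicate block (0.223 and 0.207).

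Of 19 other retinoic acid genes, 14 could be tested in each sex and none passed by edgeR. Rxrg, a retinoid X receptor, was at 56.5 to 85.8 CPM in PE+/- females and at 109 to 120 CPM in PE-/- females, without overlap (log2 fold change 0.70 ± 0.16; adjusted p of 0.0963 by edgeR and 0.00626 by DESeq2, which called no other gene of the list in females). Rdh10, which makes the retinal that ALDH1A enzymes use, had its smallest adjusted p between sexes in PE+/-, with 6.51 ± 2.04 CPM in females and 14.4 ± 7.03 CPM in males (SD, n = 4 each; adjusted p = 0.249). Of 10 genes of the GDNF family, 7 were tested in females and 5 in males, and none passed. The list summed to 614, 43.3, 64.4 and 550 CPM in PE+/- females and to 693 to 1102 CPM in PE-/- females. In females most of this came from genes other than Nrtn, Gdnf and Ret. In males the sum was at 545 to 667 CPM in PE+/- and at 534 to 903 CPM in PE-/-. Nrtn, the ligand of GFRA2, was low, at 0 to 2.97 CPM except for 27.6 CPM in PE+/- male library 1, and the log2 fold change of Gdnf in females was 1.59 ± 0.57 (adjusted p = 0.228). Ret, the partner of GFRA receptors that carries the signal into the cell, was at 0.855 ± 0.936 CPM in PE+/- females and 0.494 ± 0.339 CPM in PE-/- females. Of 16 genes of the S100 list, 7 were tested in females and 6 in males, with medians of -0.52 and -0.25, and none passed. S100a13 was lower in PE-/- females, with a log2 fold change of -0.96 ± 0.32 (adjusted p = 0.201), and S100a11 had one of -0.52 ± 0.22 (adjusted p = 0.294). In the MIA family, the female log2 fold change was -0.34 ± 0.17 for Mia2 (adjusted p = 0.406) and 0.065 ± 0.16 for Mia3 (adjusted p = 0.903). In the comparisons between sexes and in the interaction, 0 genes of these lists passed the edgeR threshold, while DESeq2 called Sox11 between sexes in PE+/- and in the interaction.

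**Figure D4:**
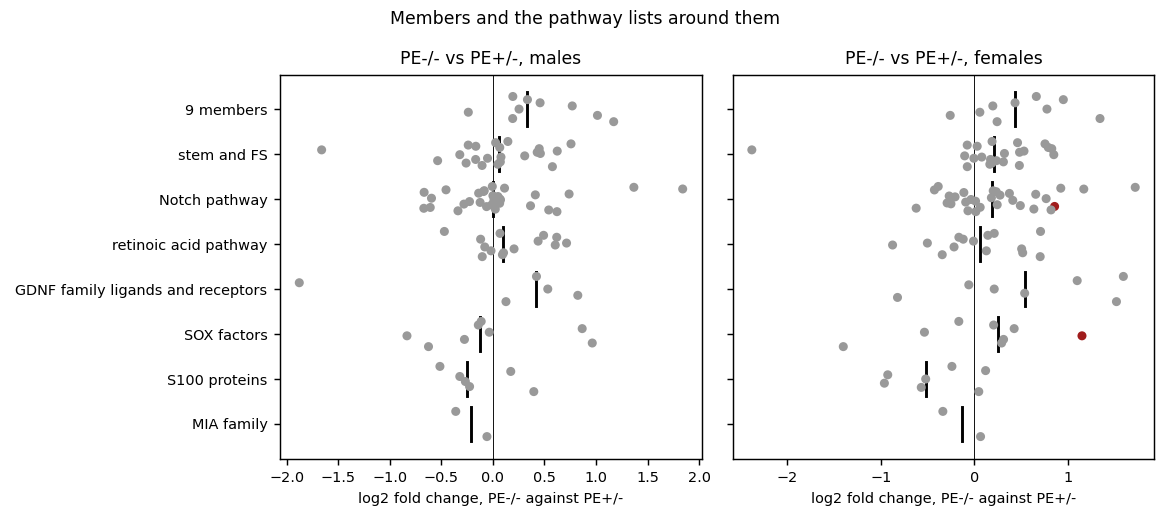
Log2 fold change (horizontal axes, PE-/- against PE+/-) of the members and of each tested gene of the pathway lists, in males and in females. Black bars are medians, 0.33 and 0.43 for the members, and the red points, Maml2 and Sox11 in females, are the genes past an edgeR adjusted p of 0.05.

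Markers of other cell types differed between the same female libraries in both directions. Between these groups edgeR called 1.05% of all genes. Of the 6 gonadotrope markers, 5 fell in PE-/- females by edgeR, with a median log2 fold change of -3.74. Their sum was at 666 to 2302 CPM in PE+/- and at 75.4 to 132 CPM in PE-/-. Of the 3 lactotrope markers, 1 fell, the hormone gene Prl (log2 fold change -2.58; edgeR adjusted p = 0.00698), while Drd2 and Pou1f1 overlapped between the groups. Of 9 fibroblast and meningeal markers tested, 1 fell, Col1a2 (log2 fold change -1.95; adjusted p = 0.0207), and 4 of the 9 had positive estimates, with Pdgfra and Islr higher without overlap in PE-/-. Of the 6 pericyte markers none passed by edgeR and 3 had positive estimates. The lower sum in PE-/-, at 302 to 381 against 437 to 940 CPM, rested on Rgs5. Its log2 fold change was -1.21, with an adjusted p of 0.100 by edgeR and 0.0039 by DESeq2. The other hormone cells leaned the same way as the members without a call: the estimates were positive for 4 of 4 melanotrope markers (median 0.53), 4 of 4 corticotrope markers (0.38), 3 of 3 thyrotrope markers (0.31) and 2 of 3 somatotrope markers (0.62). These lists are not separate, since Pomc is in the first 2 and Pou1f1 in both the lactotrope and somatotrope lists. Other lists had few positive estimates: erythroid 0 of 5 (median -0.85), endothelial 1 of 6 (-0.35), cartilage 1 of 3 (-1.07), posterior lobe 1 of 3 (-0.077) and macrophages 3 of 7 (-0.11). Schwann cells and other glia had 3 of 5 (0.16). DESeq2, which called 7.96% of all genes, called 2 of these glial markers and all 6 gonadotrope markers. It also called 1 each of the lactotrope, fibroblast and meningeal, pericyte, cartilage and posterior lobe markers. The summed level of the 9 members, most of it from Sox9, Aldh1a1 and Aldh1a2, was at 95.5 to 125 CPM in PE+/- females and at 148 to 205 CPM in PE-/- females. The part of other cell types in the differences of Notch2, Aldh1a2 and Sox9 was not tested.

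The members did not form 1 pattern across the libraries. Over the 15 libraries, the closest pair was Sox9 and Aldh1a2, with a Pearson r of 0.74 of log2 CPM (0.64 after removing the group means), followed by Sox2 and Notch2 at 0.63 (0.69). Notch2 and Aldh1a2, both high in PE-/- females, had an r of 0.54 over all libraries and of -0.28 after removing the group means. These values are descriptions over libraries that share groups and depth. Among genes outside the 9, the profile of Notch2 was most like those of Foxred2 (r = 0.95), Lgi3 (0.94) and Slc6a11 (0.93), that of Sox9 like Fut8 (0.95), AI854703 (0.91) and Ralyl (0.90), and that of Aldh1a2 like Irs4 (0.91), Insm1 (0.90) and Neurod1 (0.89). Sox2 was most like Pld3 (0.88), Lrp3 (0.88) and Cdk6 (0.87), and Aldh1a1 like Ppp1r3b (0.87), Gm21983 (0.85) and Asap3 (0.85). The highest r values of the other members were 0.83 for Gfra2 (Rev3l), 0.82 for Mia (Rpa1), 0.85 for S100b (Gm15361) and 0.83 for Hes1 (Olfr1508). The mean standardised level of the 9 was most like Gm3888 (0.91), Cdkn1c (0.88), Sod3 (0.88), Smo (0.86) and Sdc4 (0.85).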

How the data were processed

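Whole-pituitary libraries were prepared from total RNA with a low-input kit. Trimming with cutadapt, alignment to mm10 with STAR and counting with featureCounts are the steps the authors describe. What they deposited is a table of estimated counts, whole numbers that were not normalized. Its row names and steps point to counts derived from coverage of an assembly, and how these were made is not given in the sources used here (rows of single-transcript genes held the value 5 at 1.41 times the frequency of its neighbours, so about 4 counts stood for 1 fragment). Members and gene lists were chosen with earlier results of these data known. All 9 members and, of each pathway list, the genes past the threshold or else the 2 with the smallest adjusted p are named, with the genes of most similar profile (3 per member, 5 for their mean, among genes with a mean of at least 20 counts, on log2 CPM with a prior count of 2). Ret was named after its values were seen.

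In R 4.3.3, edgeR 4.0.16 was fitted to the libraries compared, over all rows that passed filterByExpr (at least 10 counts, and 15 in total), with TMM factors and a two-sided quasi-likelihood test, Benjamini-Hochberg adjusted over all genes tested, at 0.05. The interaction was fitted on all 15 libraries. Standard errors are the log2 fold change over the square root of F, and 95% intervals use its degrees of freedom. Fitted genes numbered 17163 to 19286. Alternatives were DESeq2 1.42.0, a likelihood ratio test, other scalings and filters, counts divided by 4, rows summed per symbol, 1 fit on all libraries, a replicate block and leaving out each library. After seeing the data, 2 were added: leaving out 4 male libraries with over 50 CPM of posterior lobe markers, and adding Gm21983 to Mia. All replicate pairs differed by more than counting noise. Deviations of libraries with the same replicate number had correlations of -0.081 to 0.13. Between genotypes in females, replicates 1 and 2 had 0.13 and 0.087, against at most -0.017 and -0.039 with other numbers. Replicate 2 between sexes in PE-/- had 0.11 against at most -0.014. Elsewhere the same number did not give the highest correlation. Whether replicate numbers pair the libraries was not tested further. Isolated gonadotropes were not analysed here.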

Additional observations from a re-analysis of the deposited data

Results flagged for a closer look

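Among the 27 sets of 4 libraries (9 members in the 3 groups of 4), 3 held a library that stood apart from the other libraries of its group by Dixon's test at the 95% level, and chance alone flags about 1 in 20 sets. Aldh1a1 in PE+/- male library 3 was at 20.8 CPM, with the other libraries at 14.5 to 15.4 CPM. Gfra2 in PE-/- male library 1 was at 7.43 CPM, with the others at 3.84 to 4.44 CPM. Hes1 in PE+/- male library 1 was at 2.11 CPM, with the others at 0.183 to 0.371 CPM, which were 3 to 8 counts each. The endothelial markers of that library summed to 369 CPM, against 91.0, 135 and 115 CPM in the other PE+/- males. In PE-/- male library 3 they summed to 103 CPM, with Hes1 at 2.62 CPM. A link was not tested.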

How the results depend on the processing

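Of 815 values of the members under other settings, 765 kept their direction and side of the threshold, 11 passed it and 39 changed sign. No member was called to begin with, so none could lose a call. The number of members called, 0 in each comparison, went under DESeq2 to 1 (males), 3 (females), 1 (sexes in PE+/-) and 1 (interaction), and in females to 2 under both the likelihood ratio test and 1 fit on all libraries, and ran from 0 to 1 when 1 library was left out; the cause was not tested. In females the log2 fold change kept its sign under 16 of 16 alternatives for Notch2 (1.19 to 1.56), Aldh1a2 (0.73 to 0.85) and Sox9 (0.74 to 1.19). The labels did not say that replicate numbers pair the libraries, so the replicate block is given as an alternative only. It called 0 members, and under it the sign turned for S100b in males (-0.13), between sexes in PE-/- (0.14) and in the interaction (1.34), and for Gfra2 in females (-0.099). Under the block the edgeR adjusted p of Maml2 and Sox11 in females was 0.223 and 0.207, and without a low-count filter 0.0657 and 0.0503. Leaving out the libraries rich in posterior lobe markers left 2 libraries in each male group. The sign then turned in males for S100b (-0.46), Sox9 (-0.015) and Gfra2 (0.031). It also turned between sexes in PE+/- for Sox2 (0.44), between sexes in PE-/- for S100b (0.87) and Sox9 (0.16), and in the interaction for S100b (0.93). The sum of Mia and Gm21983, most of which is Gm21983, had an estimate of 0.26 in females. Leaving out 1 library at a time turned the sign within these ranges: in males S100b (-0.21 to 0.86); in females Gfra2 (-0.086 to 0.24), Mia (-0.86 to 0.18), Hes1 (-0.18 to 0.69) and Mia3 (-0.062 to 0.16); between sexes in PE+/- Sox2 (-0.40 to 0.33); between sexes in PE-/- Sox9 (-0.26 to 0.19), Aldh1a1 (-0.25 to 0.021), Mia (-1.10 to 0.099), S100b (-1.04 to 0.041) and Hes1 (-0.54 to 0.028); in the interaction S100b (-0.43 to 0.66). Low counts limit S100b and Hes1.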
